A study of Mus musculus with 3 samples.

Results

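The transcripts of 10 genes that set the tone of the vessel wall through nitric oxide, endothelin and angiotensin were examined in RNA from mouse brain vessels. The genes were listed by name: Nos3, Gucy1a1, Gucy1b1 and Prkg1 of the nitric oxide and cyclic GMP (cGMP) pathway, Edn1, Ece1, Ednra and Ednrb of the endothelin pathway, and Ace and Agtr1a of the angiotensin pathway. All 10 were found among the 29917 genes of the expression files. Each gene is represented by its transcript with the largest total count over the 3 libraries.

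The libraries were made from vessels purified from whole brains of male mice aged 3 months. The study asked how brain vessels differ when connexin 30 (Cx30, gene Gjb6), a gap junction protein of astrocytes, is missing. One library came from Cx30-/- mice, in which Gjb6 is deleted in every cell, another from C57BL6 wild type (WT) mice and the last from C57BL6-BALB/c WT mice. Each is a pool of 3 mice, so every group is 1 sample and no value below carries a spread between animals. The labels place the Cx30-/- mice on C57BL6, whereas the study's methods give a mixed C57BL6/Balbc background. Which WT library is the background-matched control is therefore not settled by the sources, and genotype and strain background cannot be told apart in either comparison.

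In vessels, endothelial nitric oxide synthase (Nos3) makes nitric oxide, which enters the neighbouring smooth muscle, activates soluble guanylate cyclase (Gucy1a1 with Gucy1b1) and, through cGMP and its kinase (Prkg1), relaxes the muscle. Endothelin-1 (Edn1) is released by endothelial cells after cleavage by endothelin-converting enzyme (Ece1), contracts smooth muscle through the receptor Ednra, and acts on endothelium and astrocytes through Ednrb. Angiotensin-converting enzyme (Ace), bound to the endothelial surface, makes angiotensin II, which contracts vessels through receptors such as Agtr1a.

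Counts summed over all transcripts were 60725557 in C57BL6 WT, 53484865 in C57BL6-BALB/c WT and 50375426 in Cx30-/-, where a read can count for more than 1 transcript of a gene. Gjb6, the deleted gene, had 2899 and 2246 counts in the C57BL6 and C57BL6-BALB/c WT libraries and 96 in Cx30-/-, in keeping with the labels. The 96 counts were spread over 79.6% of the bases of the Gjb6 transcript, against 100% and 99.8% in the WT libraries. Where these remaining reads came from was not tested. Normalized counts below are raw counts divided by a size factor per library. Markers of endothelium (10 genes), smooth muscle (8) and pericytes (8) were detected in every library, and none was at 0. RNA of other cells was present too. In C57BL6 WT the summed normalized counts per kb were 13620 for neuron, 9010 for astrocyte and 228100 for choroid plexus markers, beside 37580 for endothelial markers. The choroid plexus gene Ttr had 157623, 49004 and 68029 counts in C57BL6 WT, C57BL6-BALB/c WT and Cx30-/-. In the study, Gfap staining of such vessels showed a few fibers and no astrocyte cell bodies. In such bulk RNA, fewer cells of a type and less RNA per cell cannot be told apart.

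The level of the 10 genes per kb of transcript spanned a wide range, and Ece1, Nos3 and Ace stood above Ednra, Ednrb and Agtr1a in every library. This did not hold for enzymes and receptors in general, as the kinase Prkg1 stood below Ednra and Ednrb in every library. In C57BL6 WT the normalized counts per kb ran from 1742 for Ece1 through 1477 for Nos3, 1139 for Edn1, 841.5 for Ace, 781.4 for Gucy1b1, 472.6 for Gucy1a1, 244.3 for Ednrb, 222.8 for Ednra and 43.39 for Prkg1 down to 20.25 for Agtr1a. The Cx30-/- library had the same order except that Ednra, at 301, stood above Ednrb, at 221.6. The C57BL6-BALB/c WT library differed from it more. Nos3 (1303 per kb) and Ece1 (1228) led, and Edn1 dropped from the third place to the sixth, at 423.9. Among the genes with a count in a library, Nos3 was above 95.6% to 97.9% of them on this scale, Ece1 above 95.2% to 98%, and Agtr1a above 22.1% to 25.7%. With 1 library per group, the order of neighbours such as Ednra and Ednrb has no replicate check.

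**Figure D1:**
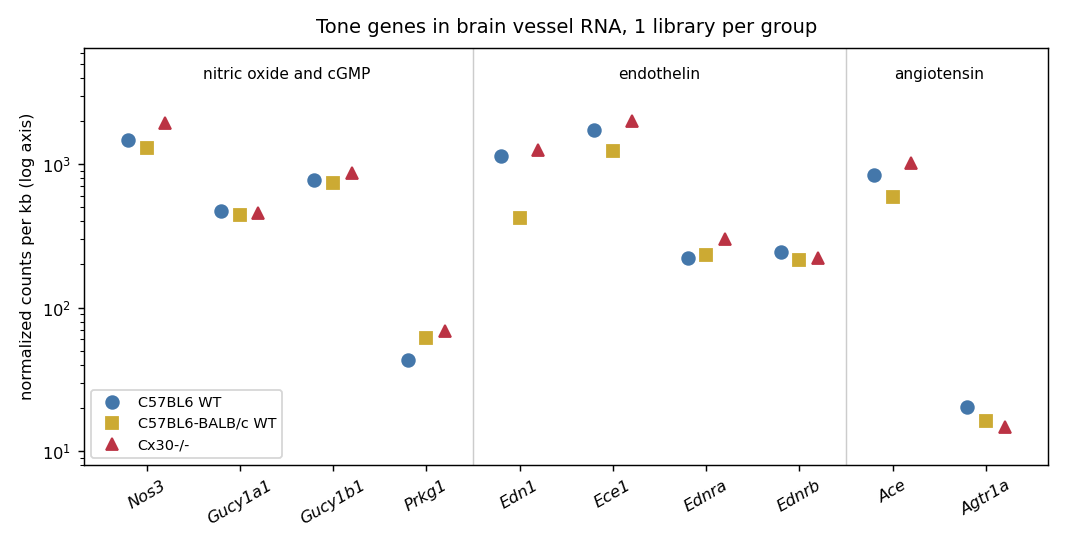
Normalized counts per kb of transcript (log axis) for the 10 tone genes, grouped by pathway, with 1 point per library and no error bar because each group is 1 library. The C57BL6-BALB/c WT point of Edn1, at 423.9, lies far below the other two, at 1139 and 1256, while the 3 points of Gucy1a1 lie between 439.6 and 472.6.

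Between libraries, Edn1 was the only one of the 10 genes past a 2-fold difference, and it was low in C57BL6-BALB/c WT rather than different between Cx30-/- and C57BL6 WT. A gene was called at 2-fold if it reached 50 normalized counts in the higher library, which 9 of the 10 genes did. Agtr1a did not. In Cx30-/- against C57BL6 WT, 0 of the 9 were called, where 1.42% of the 14776 genes tested were called higher and 1.26% lower. In Cx30-/- against C57BL6-BALB/c WT, 1 of the 9 (Edn1) was called higher and 0 lower, where 3.96% of 14891 genes were called higher and 4.73% lower. In C57BL6-BALB/c WT against C57BL6 WT, 1 of the 9 (Edn1) was called lower and 0 higher, where 1.41% of 14791 genes were called higher and 2.02% lower. A single called gene of 9 is too few to set apart from these shares. The Cx30-/- library enters both of the first comparisons, so they are not independent.

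With the size factors stated above, smaller differences ran mostly upward in Cx30-/-, a direction that rests on the scale, as described below. Of the 10 genes, 7 had their highest normalized count in Cx30-/-, 3 in C57BL6 WT and 0 in C57BL6-BALB/c WT, which was the lowest library for 7. The median log2 ratio of the 9 genes was 0.19 in Cx30-/- over C57BL6 WT, with 7 above 0 and 2 below, and 0.36 in Cx30-/- over C57BL6-BALB/c WT, with all 9 above 0. For C57BL6-BALB/c WT over C57BL6 WT it was -0.18, with 2 above and 7 below. Over all genes tested the 3 medians were -0.0046, 0.004 and 0.0004. In the same order, 7283, 7484 and 7399 of all genes tested were above 0, and 7493, 7407 and 7392 below. The share of all genes with their highest value in each library was not counted.

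The endothelial markers moved in the same directions. All 10 were higher in Cx30-/- than in C57BL6-BALB/c WT (median log2 ratio 0.86) and than in C57BL6 WT (0.19), and all 10 were lower in C57BL6-BALB/c WT than in C57BL6 WT (-0.69). Their summed level per kb was 37580 in C57BL6 WT, 20600 in C57BL6-BALB/c WT and 43940 in Cx30-/-. The 8 pericyte markers had medians of 0.10 and 0.64 for Cx30-/- over C57BL6 WT and over C57BL6-BALB/c WT. The 8 smooth muscle markers were all higher in Cx30-/- than in C57BL6 WT as well (median 0.32). They went another way against C57BL6-BALB/c WT, where 6 of the 8 were lower (median -0.20). Their summed levels were 18520, 27040 and 23630 per kb in C57BL6 WT, C57BL6-BALB/c WT and Cx30-/-. Of the 8 neuron markers, 7 were lower in Cx30-/- in both comparisons and 1, Stmn2, was not (medians -0.53 and -0.79), and the 8 red cell and neutrophil markers were all past 2-fold higher (1.49 and 2.18). For Cx30-/- over C57BL6 WT and over C57BL6-BALB/c WT the medians were -0.24 and -0.18 for 8 astrocyte markers, -0.40 and -0.33 for 6 oligodendrocyte markers, and -0.17 and 0.10 for 6 microglia and macrophage markers. They were -0.61 and 0.47 for 8 choroid plexus markers and 0.21 and 0.57 for 7 fibroblast markers. The most abundant markers per kb were Cldn5 and Esam for endothelium, Acta2 and Tagln for smooth muscle, Vtn and Pdgfrb for pericytes, Gfap and Slc1a2 for astrocytes, Snap25 and Slc17a7 for neurons, Csf1r and Tmem119 for microglia and macrophages, Igf2 and Dcn for fibroblasts, Hbb-bs and Hbb-bt for red cells and neutrophils, and Ttr and Kcnj13 for choroid plexus.

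As a step added after the values were seen, the libraries were also scaled to these markers. This subtracts the same amount from the log2 ratio of every gene. For the endothelial markers the amount was 0.21 in Cx30-/- over C57BL6 WT, 0.87 in Cx30-/- over C57BL6-BALB/c WT and -0.66 in C57BL6-BALB/c WT over C57BL6 WT, and for the smooth muscle markers it was 0.37, -0.22 and 0.59. The sign of a ratio smaller than these amounts therefore depends on the scale. On the endothelial marker scale, Edn1 (0.70) alone of the 9 tone genes stayed above 0 in Cx30-/- over C57BL6-BALB/c WT. The directions given above and below hold for the size factors stated above. The part of cell makeup in the values of the tone genes was not tested.

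**Figure D2:**
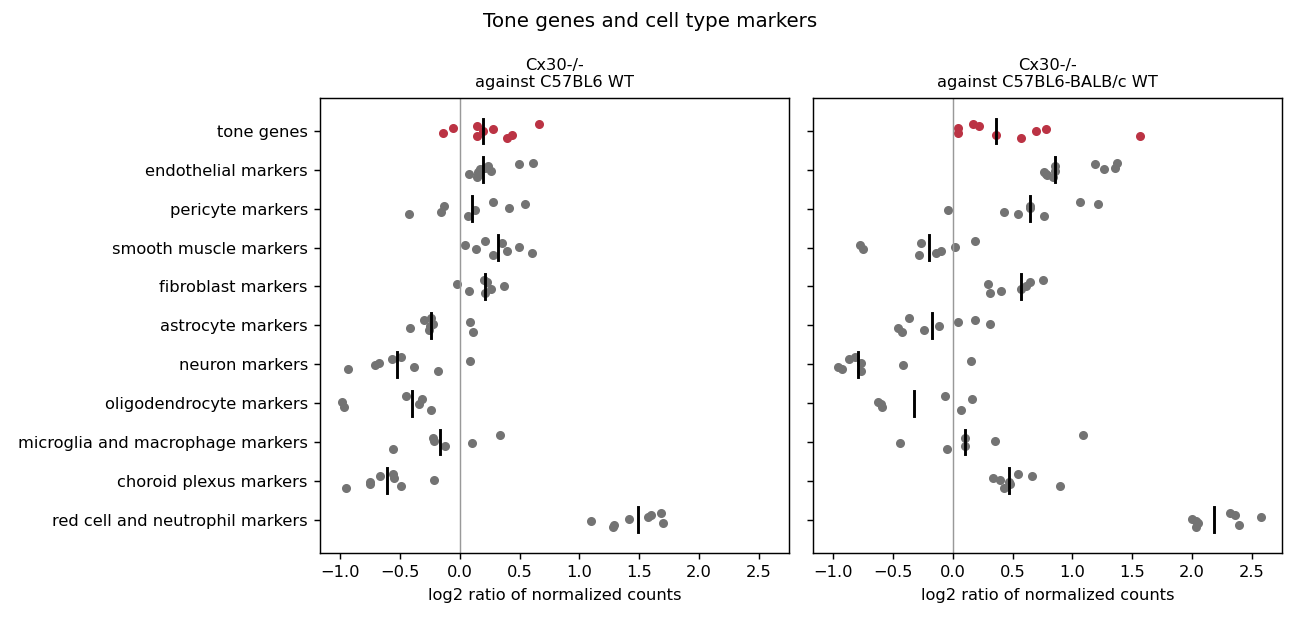
Log2 ratio of normalized counts in Cx30-/- over each WT library (columns) for the 9 tone genes and the marker genes that reached the count minimum, 1 dot per gene, with a black bar at the median of each list. The endothelial marker medians are 0.19 on the left and 0.86 on the right, and the tone gene medians 0.19 and 0.36.

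Edn1 (ENSMUSG00000021367), the gene of endothelin-1, lies on chromosome 13 at 42301476 to 42307990 of GRCm38, plus strand, with 5 exons. Its promoter is shown because Edn1 was the gene that differed most between libraries. It is the RefSeq sequence (GRCm38.p6) from 250 bases before to 50 bases after the annotated start, at chr13:42301226-42301525 on the plus strand.
Edn1: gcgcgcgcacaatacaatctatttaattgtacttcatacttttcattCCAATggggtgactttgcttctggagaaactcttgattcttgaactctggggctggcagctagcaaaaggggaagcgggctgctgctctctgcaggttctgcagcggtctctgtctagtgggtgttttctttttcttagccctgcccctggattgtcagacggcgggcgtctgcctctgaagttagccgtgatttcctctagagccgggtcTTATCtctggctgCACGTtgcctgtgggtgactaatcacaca
Capitals mark matches on either strand to any of 6 motifs that were searched by their letters alone. These were the core promoter box TATAAA, the letters GATAA bound by the GATA family of factors, and TGANTCA, which is bound by AP-1 (Fos and Jun). The others were ACGTG, the core of the hypoxia response element, the CCAAT box of general promoter factors, and the CArG box bound by serum response factor. The window held the CCAAT box at bases -203 to -199, the reverse complement of the GATA motif at bases 9 to 13 and that of the hypoxia motif at 22 to 26. Such matches are frequent. Of 32817 RefSeq promoters of this length, 37.4% held the CCAAT motif, 25.4% the GATA motif, 19.6% the hypoxia motif, 13.6% the core promoter box, 7.81% the AP-1 motif and 1.63% a CArG box. In the annotated transcript the first core promoter box lay at bases 113 to 118, downstream of the annotated start. Between 93 and 138 of the 2138 transcript bases had no read in a library, at positions that the files do not give. Of its exon bases, 35 overlap the antisense gene Gm47118.

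Edn1 had 2788 counts in C57BL6 WT, 839 in C57BL6-BALB/c WT and 2559 in Cx30-/-, or 2434.5, 906.2 and 2684.5 normalized counts. Cx30-/- and C57BL6 WT were thus near each other, and C57BL6-BALB/c WT was the low library. The log2 ratio was 1.57 (95% interval 1.45 to 1.68) for Cx30-/- over C57BL6-BALB/c WT, a 2.96-fold difference, and -1.43 (-1.54 to -1.31) for C57BL6-BALB/c WT over C57BL6 WT. It was 0.14 (0.06 to 0.22) for Cx30-/- over C57BL6 WT. These intervals cover counting error only and say nothing of differences between animals. For the first and second of these ratios the 10 endothelial markers ran from 0.76 to 1.38 and from -1.14 to -0.60, so Edn1 lay outside their range in both. On the endothelial marker scale the ratios were 0.70 and -0.77, which are not past 2-fold, and on the smooth muscle marker scale 1.79 and -2.02.

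Ece1 (ENSMUSG00000057530; chromosome 4, 137862237 to 137965229, plus strand, 20 exons) encodes the enzyme that cuts the endothelin precursor to its active form. It showed 8388.1 normalized counts in C57BL6 WT, 5912.6 in C57BL6-BALB/c WT and 9574.7 in Cx30-/-. As for Edn1, the C57BL6-BALB/c WT library was the low one, but by less. The log2 ratio was 0.70 (0.65 to 0.74) for Cx30-/- over C57BL6-BALB/c WT and 0.19 (0.15 to 0.23) over C57BL6 WT, and C57BL6-BALB/c WT over C57BL6 WT was -0.50 (-0.55 to -0.46). Ece1 has 4 transcripts in the files, and the short processed transcript Ece1-202 (321 bases), which the gene's value does not include, had 30, 17 and 53 counts in C57BL6 WT, C57BL6-BALB/c WT and Cx30-/-.

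The endothelin receptors did not share one pattern. Ednra (ENSMUSG00000031616; chromosome 8, 77663031 to 77724464, minus strand, 8 exons), the receptor on smooth muscle, showed 807.7 normalized counts in C57BL6 WT, 847.9 in C57BL6-BALB/c WT and 1091 in Cx30-/-. The Cx30-/- library was above both WT libraries, which differed by less than their counting error (log2 ratio 0.07, -0.07 to 0.21). Cx30-/- over C57BL6 WT was 0.43 (0.30 to 0.56) and over C57BL6-BALB/c WT 0.36 (0.23 to 0.50), beside smooth muscle marker medians of 0.32 and -0.20. The retained-intron transcript Ednra-202, which shares exon bases with Ednra-201, had 235, 193 and 249 counts. Of the Ednra exon bases, 91 overlap the gene 4933431K23Rik on the other strand.

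Ednrb (ENSMUSG00000022122; chromosome 14, 103814625 to 103844402, minus strand, 8 exons), the receptor of endothelium and astrocytes, showed 947.4 normalized counts in C57BL6 WT, 832.8 in C57BL6-BALB/c WT and 859.2 in Cx30-/-. The values lay close together. The log2 ratio was -0.14 (-0.27 to -0.01) for Cx30-/- over C57BL6 WT and 0.05 (-0.10 to 0.19) over C57BL6-BALB/c WT. The astrocyte marker medians in these comparisons were -0.24 and -0.18, and the endothelial marker medians, both above the Ednrb ratios, were 0.19 and 0.86. Ednrb lies on the chromosome of the deleted Gjb6, 46.7 Mb away. Per kb, the ratio of Ednra to Ednrb was 0.912 in C57BL6 WT, 1.09 in C57BL6-BALB/c WT and 1.36 in Cx30-/-.

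Nos3 (ENSMUSG00000028978; chromosome 5, 24364810 to 24384474, plus strand, 26 exons), the endothelial nitric oxide synthase, showed 6101.1 normalized counts in C57BL6 WT, 5382.2 in C57BL6-BALB/c WT and 8012.7 in Cx30-/-. Cx30-/- was the highest library and the WT libraries lay nearer each other. The log2 ratio of Cx30-/- was 0.39 (0.35 to 0.44) over C57BL6 WT and 0.57 (0.52 to 0.63) over C57BL6-BALB/c WT, and C57BL6-BALB/c WT over C57BL6 WT was -0.18 (-0.23 to -0.13). Against C57BL6 WT, Nos3 lay above the endothelial marker median of 0.19, and against C57BL6-BALB/c WT below the median of 0.86. Nos3 shares 1040 exon bases with the antisense transcript Gm15587 (1562, 1196 and 1940 counts in C57BL6 WT, C57BL6-BALB/c WT and Cx30-/-) and 294 with Atg9b. The library kit did not keep strand, so reads there cannot be assigned to one gene. Per kb, Nos3 was 1.3 times Edn1 in C57BL6 WT, 3.07 times in C57BL6-BALB/c WT and 1.54 times in Cx30-/-.

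Soluble guanylate cyclase, the nitric oxide receptor, is a dimer of the products of Gucy1a1 and Gucy1b1, which lie 17.7 kb apart on the minus strand of chromosome 3. Their promoters (RefSeq, GRCm38.p6, with capitals as for Edn1) are shown because the genes are neighbours and both stayed near level across the libraries. The Gucy1a1 window is chr3:82145601-82145900, that of the annotated start nearest to the transcript counted, and the Gucy1b1 window is chr3:82074662-82074961, both on the minus strand.
Gucy1a1: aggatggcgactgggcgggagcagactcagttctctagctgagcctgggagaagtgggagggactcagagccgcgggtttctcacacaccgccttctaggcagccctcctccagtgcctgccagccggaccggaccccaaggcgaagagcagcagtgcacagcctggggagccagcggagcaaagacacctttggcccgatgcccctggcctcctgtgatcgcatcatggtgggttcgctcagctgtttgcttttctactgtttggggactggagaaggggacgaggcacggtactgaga
Gucy1b1: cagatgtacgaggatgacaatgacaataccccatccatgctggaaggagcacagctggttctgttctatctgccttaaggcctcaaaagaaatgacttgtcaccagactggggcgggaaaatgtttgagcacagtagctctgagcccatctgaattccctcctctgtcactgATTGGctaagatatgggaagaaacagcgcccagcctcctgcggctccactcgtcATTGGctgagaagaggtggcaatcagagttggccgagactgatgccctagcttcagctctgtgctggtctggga
The Gucy1a1 window shown held no match. Another annotated Gucy1a1 start, at 82145073, had the hypoxia motif at bases 33 to 37 of its window, which is not shown. The Gucy1b1 window held the reverse complement of the CCAAT box at bases -78 to -74 and -24 to -20. RefSeq entries were found for 8 of the 10 genes, and Nos3 and Agtr1a had none in the table used.

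Gucy1a1 (ENSMUSG00000033910; 82092427 to 82145789, 9 exons) showed 2151.6 normalized counts in C57BL6 WT, 2001.5 in C57BL6-BALB/c WT and 2064.5 in Cx30-/-, and its highest library was 1.08 times its lowest. This was the smallest range of the 10 genes. The log2 ratio of Cx30-/- was -0.06 (-0.15 to 0.03) over C57BL6 WT and 0.04 (-0.05 to 0.14) over C57BL6-BALB/c WT. Gucy1b1 (ENSMUSG00000028005; 82032006 to 82074689, 14 exons) had 2518.3, 2392.5 and 2782.1 normalized counts in C57BL6 WT, C57BL6-BALB/c WT and Cx30-/-. It was slightly higher in Cx30-/-, with log2 ratios of 0.14 (0.07 to 0.22) and 0.22 (0.14 to 0.30). Per kb, Gucy1a1 was 0.605 times Gucy1b1 in C57BL6 WT, 0.592 times in C57BL6-BALB/c WT and 0.525 times in Cx30-/-.

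Prkg1 (ENSMUSG00000052920; chromosome 19, 30564489 to 31765033, minus strand, 18 exons), the cGMP-dependent kinase of smooth muscle, was a low transcript, with 184 counts in C57BL6 WT, 209 in C57BL6-BALB/c WT and 242 in Cx30-/-. Normalized, these were 160.7, 225.7 and 253.9, so C57BL6 WT was the low library. Reads covered 82%, 85.3% and 89.2% of its bases. The log2 ratio of Cx30-/- was 0.66 (0.38 to 0.94) over C57BL6 WT and 0.17 (-0.10 to 0.44) over C57BL6-BALB/c WT, and C57BL6-BALB/c WT over C57BL6 WT was 0.49 (0.20 to 0.78). The 8 smooth muscle markers were likewise lowest in C57BL6 WT, with a median of 0.59 for C57BL6-BALB/c WT over it. For Cx30-/- over C57BL6-BALB/c WT they went the other way from Prkg1, with a median of -0.20 and 6 of the 8 lower.

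Ace (ENSMUSG00000020681; chromosome 11, 105967945 to 105989964, plus strand, 25 exons), the angiotensin-converting enzyme, showed 4128.5 normalized counts in C57BL6 WT, 2916.3 in C57BL6-BALB/c WT and 4998.7 in Cx30-/-. Its pattern resembled that of Ece1, with C57BL6-BALB/c WT lowest. The log2 ratio of Cx30-/- was 0.28 (0.22 to 0.33) over C57BL6 WT and 0.78 (0.71 to 0.85) over C57BL6-BALB/c WT, and C57BL6-BALB/c WT over C57BL6 WT was -0.50 (-0.57 to -0.43). Against C57BL6-BALB/c WT the ratio lay near the endothelial marker median of 0.86. The 4 Ace transcripts in the files, which share exons, gave log2 ratios of 0.67 to 0.78 in that comparison. Ace shares 295 exon bases with the antisense transcript Gm11651 (349, 202 and 322 counts).

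Agtr1a (ENSMUSG00000049115; chromosome 13, 30336441 to 30382867, plus strand, 3 exons), the angiotensin II receptor, was near the limit of detection. It had 51 counts in C57BL6 WT, 33 in C57BL6-BALB/c WT and 31 in Cx30-/-, and reads covered 60.3%, 51.8% and 45.4% of its bases. The log2 ratio of Cx30-/- was -0.45 (-1.15 to 0.22) over C57BL6 WT and -0.13 (-0.89 to 0.62) over C57BL6-BALB/c WT. A difference between libraries was not detectable at this depth. Agtr1b, a close copy of the gene, had 29, 41 and 36 counts, and because reads matching more than 1 place were removed, reads shared by the copies were lost from both.

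**Figure D3:**
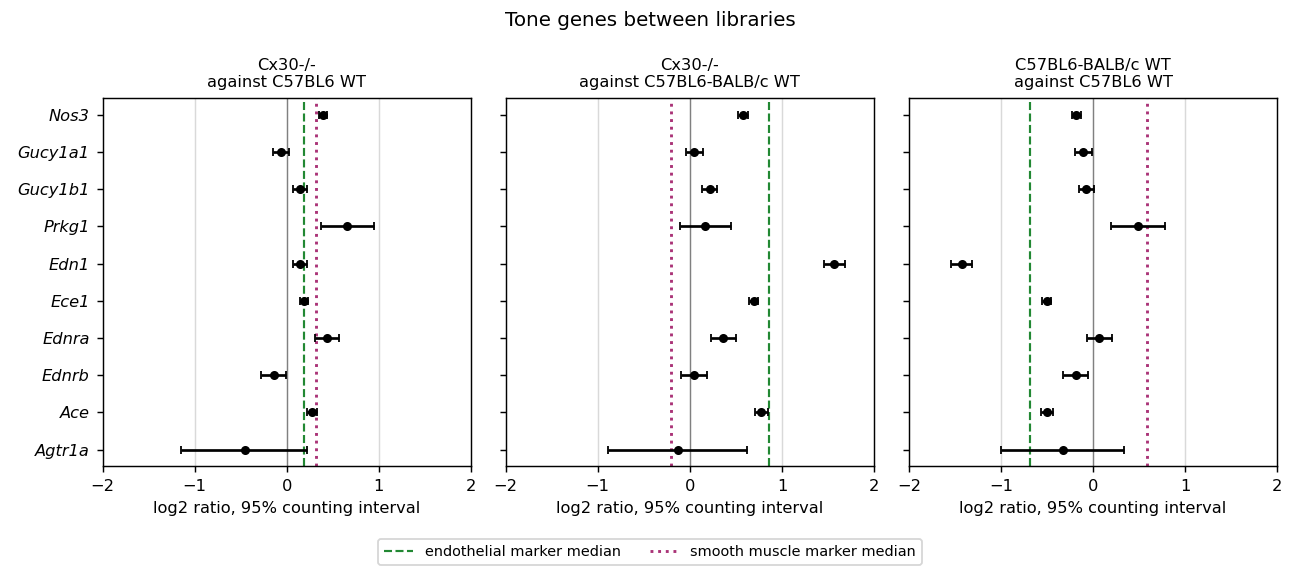
Log2 ratio of normalized counts for the 10 tone genes in the 3 library comparisons, with bars for the 95% counting interval, a dashed line at the endothelial marker median and a dotted line at the smooth muscle marker median. Edn1 is the only point past 2-fold (grey lines at -1 and 1), at 1.57 in the middle panel and -1.43 on the right, and Agtr1a has the widest intervals.

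Taking both WT libraries as 1 group of 2, which treats the strain difference between them as replicate spread, edgeR's quasi-likelihood test called 0 of the 10 genes at an adjusted p under 0.05, where 0.0512% of 17576 genes (9) were called. None of the 10 had an unadjusted p under 0.05 in edgeR, and DESeq2 also gave 0 calls and 0 unadjusted. Without the filter on low counts edgeR gave 0 calls and 1 unadjusted p under 0.05, that of Edn1. The estimated log2 ratio of Cx30-/- over WT was largest for Edn1, at 0.69 (edgeR adjusted p = 0.67), followed by 0.51 for Ace (adjusted p = 0.765) and 0.49 for Nos3 (adjusted p = 0.811). It was 0.43 for Ece1 (adjusted p = 0.875), and 0.40 for both Ednra (adjusted p = 0.781) and Prkg1 (adjusted p = 0.868), in the same edgeR fit. Gucy1b1 was at 0.19, Gucy1a1 at -0.0032, Ednrb at -0.05 and Agtr1a at -0.30, with adjusted p from 0.94 to 0.999 in edgeR. In the same fit Gjb6 was at -4.61 (edgeR adjusted p = 5.28e-07). With a single Cx30-/- library, the error in these tests comes only from the difference between the WT libraries. The p values therefore do not show that the genes were alike.

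Of 35 other genes listed for the nitric oxide and cGMP pathway, 33 were matched by symbol and 30 reached the count minimum, of which 0 were past 2-fold in Cx30-/- over C57BL6 WT, with log2 ratios from -0.93 (Prkg2) to 0.67 (Pde5a) and a median of 0.14. The share called over all genes was also small there, at 1.42% higher and 1.26% lower. Over C57BL6-BALB/c WT, 2 were past 2-fold higher and 2 lower (median 0.14), where 3.96% of all genes were called higher and 4.73% lower. So few calls cannot be set apart from these shares. Gch1, the first enzyme in the synthesis of the synthase cofactor tetrahydrobiopterin, showed 233.1 normalized counts in C57BL6 WT, 88.6 in C57BL6-BALB/c WT and 220.3 in Cx30-/-. Nos2, the inducible synthase, had 242.8, 102.6 and 230.8. Both were low in C57BL6-BALB/c WT, as Edn1 was. The lower genes were Prkg2, a cGMP kinase found outside smooth muscle (55.9, 141.5 and 29.4 normalized counts), and the arginase Arg2 (62.9, 110.2 and 39.9), and both were high in C57BL6-BALB/c WT. The most abundant gene of the list per kb, Cav1, whose product holds Nos3 at the endothelial membrane, had 6584, 4876.7 and 7458.8 normalized counts.

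Among the other endothelin genes, 8 of 9 reached the minimum. Mmel1, a peptidase, was past 2-fold higher in Cx30-/- than in C57BL6 WT, from 24 to 54 counts (log2 ratio 1.43, 0.72 to 2.19), with 67 in C57BL6-BALB/c WT. Ecel1, a relative of Ece1 found in neurons, and Mme (neprilysin), which degrades endothelin, were lower than in C57BL6-BALB/c WT, at -1.63 and -1.09. The medians of the list were 0.01 over C57BL6 WT and -0.40 over C57BL6-BALB/c WT. Over all genes, 1.42% were called higher and 1.26% lower against C57BL6 WT, and 3.96% and 4.73% against C57BL6-BALB/c WT. So few calls in the list cannot be set apart from these shares. Edn3, the endothelin that acts mainly on Ednrb and the most abundant of the list per kb, showed 2272.1 normalized counts in C57BL6 WT, 1790.8 in C57BL6-BALB/c WT and 2760.1 in Cx30-/-.

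Of the 18 other renin-angiotensin genes, 17 were matched by symbol and 12 or 13 reached the minimum. Mas1, the receptor of angiotensin-(1-7), an opponent of angiotensin II, was low in Cx30-/- against both WT libraries, with 832 counts in C57BL6 WT, 853 in C57BL6-BALB/c WT and 298 in Cx30-/-. Its log2 ratios were -1.22 and -1.56, and edgeR gave an adjusted p of 0.164. Of the 8 neuron markers, 7 were also lower in Cx30-/- in both comparisons (medians -0.53 and -0.79). The lowest of them were at -0.94 (Syt1) and -0.955 (Rbfox3), so Mas1 lay below their range in both. The part of neuron content in the Mas1 value was not tested. Agtr2, the second type of angiotensin II receptor, was lower than in C57BL6-BALB/c WT (34 against 79 counts, -1.26) and under the minimum in Cx30-/- and C57BL6 WT. The most abundant gene per kb, the protease Ctsd, had 12789.1, 8569.6 and 11042.3 normalized counts in C57BL6 WT, C57BL6-BALB/c WT and Cx30-/-. The medians of the list were 0.02 and 0.40. In the list, 1 gene was called lower against C57BL6 WT and 2 against C57BL6-BALB/c WT, with 0 higher in either. The shares called lower over all genes were 1.26% and 4.73%, and so few calls cannot be set apart from them.

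**Figure D4:**
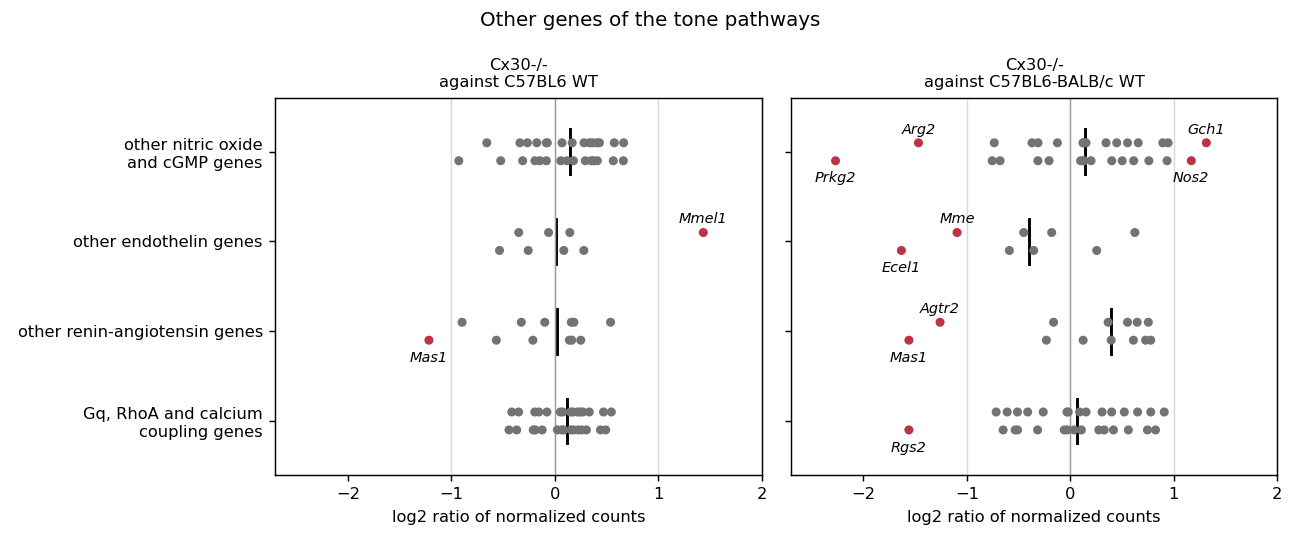
Log2 ratio of normalized counts in Cx30-/- over each WT library (columns) for the other genes of the pathways that reached the count minimum, 1 dot per gene, with a black bar at each median and the genes past 2-fold in red with their names. Past 2-fold are Mmel1 (1.43) and Mas1 (-1.22) on the left, and 4 nitric oxide and cGMP genes, 2 endothelin genes, 2 renin-angiotensin genes and Rgs2 (-1.56) on the right.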

How the data were processed

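RNA from purified brain vessels was measured in 3 libraries, 1 per group, with groups taken from GEO's genotype and strain labels. Polyadenylated RNA was sequenced as single reads of 50 bases with a kit that does not keep strand. The authors ran Eoulsan for quality filtering, Bowtie alignment and removal of reads matching more than 1 place, and deposited raw counts per Ensembl transcript. The deposited tables also hold a fraction (count over a library total), the transcript length and the number of bases without a read. The fractions were used only to recover that total, which was 24830975, 21170766 and 20654144 in C57BL6 WT, C57BL6-BALB/c WT and Cx30-/-. The methods name mm10, but the positions in the files run past the end of its chromosome 1, so coordinates come from GENCODE M21 (GRCm38) by transcript identifier. Of 82813 transcripts, 83.8% matched, giving 29917 genes, each represented by its transcript with the largest total count (10440 genes had more than 1).

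Size factors were medians of ratios (1.15, 0.926 and 0.953). A gene was called if it reached 50 normalized counts in the higher library and differed 2-fold, which follows the thresholds of the study. Intervals are exact binomial (95%) on the raw counts of a pair of libraries and cover counting error only. Pairwise comparisons have no replicates and no test. Cx30-/- was tested against both WT libraries with edgeR 4.0.16 (quasi-likelihood, Benjamini-Hochberg), with DESeq2 1.42.0 as the alternative. Both steps were run on simulated counts with no strain difference and less spread between libraries than in these data. edgeR estimated a common biological coefficient of variation of 0.21 here. The simulation therefore does not show how the test performs on these libraries. The WT libraries differ in strain, so their spread is not that of replicates. The members, gene lists and named genes were chosen with earlier results of these data known. Named were all 10 members, each other listed pathway gene past 2-fold in a Cx30-/- comparison, the most abundant gene per kb of each pathway list, the most abundant genes of marker lists, and Gjb6. The most abundant oligodendrocyte markers are not reported here. Alternatives were other scalings, other ways to represent a gene, other minimums, a pseudocount of 1 and a fold of 1.5. Promoters are from RefSeq.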

Additional observations from a re-analysis of the deposited data

How the results depend on the processing

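Over the other scalings, gene representations and the pseudocount, 168 recomputed log2 ratios of the 10 tone genes stayed within their counting interval and 12 did not. Among these, 1 changed sign (Ednra in C57BL6-BALB/c WT over C57BL6 WT, -0.05 with total-count scaling). This tally leaves out the scaling to endothelial and smooth muscle markers, where 7 ratios stayed within the interval, 53 did not, and many changed sign. Without the marker scalings, Edn1 stayed at 1.57 to 1.70 in Cx30-/- over C57BL6-BALB/c WT and at 0.14 to 0.16 over C57BL6 WT. For C57BL6-BALB/c WT over C57BL6 WT it stayed at -1.55 to -1.41. A fold of 1.5 called 1 tone gene (Prkg1, higher) in Cx30-/- against C57BL6 WT. Of all 14776 genes tested there, it called 726 higher and 865 lower. Against C57BL6-BALB/c WT it called 3 tone genes (Edn1, Ece1 and Ace, higher). Of all 14891 genes tested there, 2106 were called higher and 2204 lower. Over all genes, in the order Cx30-/- against C57BL6 WT, Cx30-/- against C57BL6-BALB/c WT and the WT libraries against each other, the calls were 396, 1294 and 508. Without a count minimum they were 3812, 4960 and 3983, and at a fold of 1.5 they were 1591, 4310 and 2274. With at least 50 normalized counts in both libraries, 230, 962 and 331 were called. Total-count scaling shifted the median of all genes by 0.13 (Cx30-/- over C57BL6-BALB/c WT) and -0.13 (C57BL6-BALB/c WT over C57BL6 WT). It moved the calls from 589 higher and 705 lower to 896 and 462 in the former, and from 209 and 299 to 143 and 432 in the latter. edgeR called 135 genes without the filter on low counts, against 9 with it. The cause was not tested. Without either WT library edgeR has no residual degree of freedom, so no count could be given, and the pairwise ratios stand in for it.

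A single pool per group limits every comparison: differences between animals were not measured, and the strain background of Cx30-/- is given differently by the labels and the methods. Scaling to the endothelial markers, added after the values were seen, takes Edn1 under 2-fold and subtracts 0.87 from every log2 ratio of Cx30-/- over C57BL6-BALB/c WT, so the sign of smaller ratios rests on the scale. Prkg1 and Agtr1a rest on few counts.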

Other observations

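Receptors for endothelin and angiotensin II contract smooth muscle through Gq and RhoA proteins and calcium, and the 30 genes listed for that coupling all reached the count minimum. Against C57BL6 WT, 0 were past 2-fold in Cx30-/- (median log2 ratio 0.12), where 1.42% of all genes were called higher and 1.26% lower. Against C57BL6-BALB/c WT, 1 was lower and 0 higher (median 0.06), where 3.96% of all genes were called higher and 4.73% lower. The lower one of the 30 was Rgs2, a brake on Gq signalling that is itself a target of the cGMP kinase. It showed 584.2 normalized counts in C57BL6 WT, 1351.2 in C57BL6-BALB/c WT and 458.4 in Cx30-/-, so the C57BL6-BALB/c WT library was the high one. The log2 ratio was -1.56 over C57BL6-BALB/c WT and -0.35 over C57BL6 WT. edgeR gave an adjusted p of 0.379 for Cx30-/- against both WT libraries.

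The most abundant gene of that list per kb was Rgs5, another brake on Gq signalling and a marker of pericytes. It showed 34209 normalized counts in C57BL6 WT, 21342 in C57BL6-BALB/c WT and 40043.3 in Cx30-/-. Its log2 ratios, 0.23 over C57BL6 WT and 0.91 over C57BL6-BALB/c WT, stood beside pericyte marker medians of 0.10 and 0.64. Pde5a, the phosphodiesterase that breaks down cGMP in smooth muscle, was named after its values were seen. It had 372, 438 and 491 counts in C57BL6 WT, C57BL6-BALB/c WT and Cx30-/-. Its log2 ratio of 0.67 (0.47 to 0.86) over C57BL6 WT was the highest of the 30 genes of its list, whose median was 0.14. Over C57BL6-BALB/c WT it was 0.12 (-0.07 to 0.31).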
